A study of Homo sapiens with 22 samples.

Results

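The 10 genes described here are transcripts that interferon induces or that sense foreign RNA, chosen by symbol from the 33694 genes of the count tables. They fall into 6 effectors, ISG15, IFI6, IFIT1, IFIT2, IFIT3 and MX1, and 4 sensors, OAS1, DDX58, IFIH1 and EIF2AK2. Their transcripts were followed through mRNA reprogramming of BJ cells, an established line of human foreskin fibroblasts, in microfluidic chips. D0 fibroblasts were harvested before any transfection. The later groups, D3, D5, D7, D9, D11, D13 and D15, received daily RNAs for POU5F1, SOX2, KLF4, MYC, LIN28 and NANOG from day 1 to day 8 in a supplemented Pluriton medium, whose supplement is not named in the sources used here (an inhibitor of interferon there would bear on these genes), and iPSBrew medium from day 9. D3, D5 and D7 were therefore sampled during the transfections, and D9 to D15 after them. The paper describes BJ culture in DMEM with fetal bovine serum, and all of the reprogramming in a hypoxia incubator. It does not state the oxygen level of the earlier culture. Transfection, medium, time in the chip and possibly oxygen moved together and cannot be told apart, and no mock-transfected group was analysed here. Each day had 2 pools, A and B, and each pool held cells of 4 chips, so that levels and tests below are over pools, and means over cells are named as such.

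Interferons are secreted when a cell detects viral or other foreign RNA or DNA. They bind surface receptors, whose JAK kinases phosphorylate STAT2, and STAT2 acts with IRF9 on a short response element in the promoters of their targets. Cytosolic sensors start the response: DDX58 (RIG-I) and IFIH1 (MDA5) recognise double-stranded or 5'-triphosphate RNA, OAS1 makes an oligoadenylate that activates RNase L, and EIF2AK2 (PKR) halts translation. The sensors are themselves interferon targets, and RNA transfection is a known trigger of the pathway in fibroblasts.

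The libraries gave 41975 cells with at least 1000 detected genes and at most 10% mitochondrial UMIs, and 33181614 to 180056814 UMIs per pool. A UMI is a molecular tag that counts 1 captured transcript, and CPM below is the usual counts-per-million scale, a gene's UMIs over all UMIs of the cells of a pool. Median depth per cell ranged from 23717 UMIs in D0 pool A to 80168 in D7 pool A. Libraries shared at most 2.105% of the smaller library's cell barcodes. The fibroblast label was borne out by the marker genes on D0, where 10 fibroblast genes together reached 21164 to 21634 CPM and 10 genes of pluripotent and developmental cells reached about 44 CPM in both pools. The same sum of fibroblast genes fell to 7216 to 15413 CPM on D3 to D7 and to 2153 to 8092 CPM on D11 to D15, while that of the developmental genes reached 1815 to 3995 CPM. Of 10 immune cell markers, 9 were below 1 CPM in both D0 pools, and CD68 alone, which fibroblasts also express, stood at 87.3 and 88.2 CPM.

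All 10 genes lie on the reference chromosomes of GRCh38, positions being those of GENCODE. ISG15 spans 1001138 to 1014540 on the plus strand of chromosome 1 and IFI6 spans 27666064 to 27672212 on its minus strand. IFIT2 (89283694 to 89309271), IFIT3 (89327307 to 89377473) and IFIT1 (89392546 to 89406487) sit beside each other on the plus strand of chromosome 10. IFIH1 spans 162267074 to 162318684 and EIF2AK2 37099210 to 37157522 on the minus strand of chromosome 2. MX1 (chromosome 21, 41420020 to 41470071) and OAS1 (chromosome 12, 112905856 to 112933219) are on the plus strand, and DDX58, which GENCODE names RIGI, is on the minus strand of chromosome 9 at 32455302 to 32526208. IFI6 and IFIT2 overlap another gene of the files on the same strand, so reads in the shared part could be counted for neither.

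A feature shared by most of these genes, and not used to choose them, is the core of the interferon response element in the promoter. The letters searched were GAAANNGAAA on both strands, in RefSeq windows of GRCh38.p14 from 250 bases before to 50 bases after the start of each gene. Of the 12 windows found for 9 of the 10 genes, with none for IFIT2, 9 held it (75.0%), against 3.57% of all 35116 windows. At the level of genes, 7 of 9 had at least 1 window with it, and OAS1 and DDX58 had no match to these letters. The windows of OAS1 and DDX58 hold GAAACGAAA, with 1 base between the repeats in place of 2. That spacing was not searched, so these 2 genes are not shown to lack the element. The share was 4.38% of all 27305 genes with a window and 69.0% (20 of 29) of the other interferon-stimulated genes counted further on, so the letters are not particular to the genes described here. The 250 bases before the start are shown for IFI6, which fell most of the tested effectors, for IFIT1, which fell and rose again, and for IFIH1, the sensor that went the other way, with the matches in capitals and overlapping matches as 1 run. IFI6 is read from the minus strand of chr1:27672193-27672442, IFIT1 from the plus strand of chr10:89392373-89392622 and IFIH1 from the minus strand of chr2:162318685-162318934.
IFI6: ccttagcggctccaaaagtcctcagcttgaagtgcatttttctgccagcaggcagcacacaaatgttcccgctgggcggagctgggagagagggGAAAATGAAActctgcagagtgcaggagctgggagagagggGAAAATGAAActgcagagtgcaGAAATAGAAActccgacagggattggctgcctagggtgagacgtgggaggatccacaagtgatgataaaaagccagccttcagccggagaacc
IFIT1: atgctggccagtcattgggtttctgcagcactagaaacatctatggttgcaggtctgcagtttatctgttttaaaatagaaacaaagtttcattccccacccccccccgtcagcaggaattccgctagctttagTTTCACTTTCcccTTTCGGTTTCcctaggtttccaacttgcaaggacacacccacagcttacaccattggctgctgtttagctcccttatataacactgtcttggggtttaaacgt
IFIH1: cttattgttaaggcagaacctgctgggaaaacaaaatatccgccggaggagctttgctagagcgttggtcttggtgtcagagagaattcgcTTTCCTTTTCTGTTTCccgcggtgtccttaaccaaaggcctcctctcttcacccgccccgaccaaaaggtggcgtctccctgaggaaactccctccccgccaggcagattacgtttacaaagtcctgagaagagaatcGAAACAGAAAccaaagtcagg
The IFI6 window held 3 matches, the first base of each lying 156, 115 and 93 bases before the start. IFIT1 held 2, 116 and 103 bases before the start, and there the capitals open with TTTC because the match is on the opposite strand. IFIH1 held 3, of which 2 overlapped at 159 and 153 bases and 1 lay 21 bases before the start. A match to these letters is a description of the window and not a measured binding site.

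The first question was whether these genes were higher while RNA was being transfected than before it. They were not, with 1 exception. In the mean of D3, D5 and D7 against D0, 8 of the 9 genes that passed the filter on low values were called lower and 1, IFIH1, was called higher, by edgeR's quasi-likelihood test with 16 pools in 1 fit. To be called, a gene had to reach an adjusted p under 0.01 together with a change of over 0.25 on the log2 scale. Across the 12794 genes tested, 20.4% were called lower and 19.4% higher. The median log2 fold change was -1.35 over the 9 genes and -0.02 over all genes tested. Counted by pools, 8 of the 10 genes had all 6 pools of D3 to D7 below both D0 pools, IFIH1 had all 6 above, and MX1 overlapped. The same rule was met by 27.4% of all genes tested in the lower direction and 28.2% in the higher. The summed level of the 10 fibroblast markers also fell over this interval, as given above, with 4 of them called lower, 0 higher and 6 not called. Their part in the result was not tested.

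**Figure D1:**
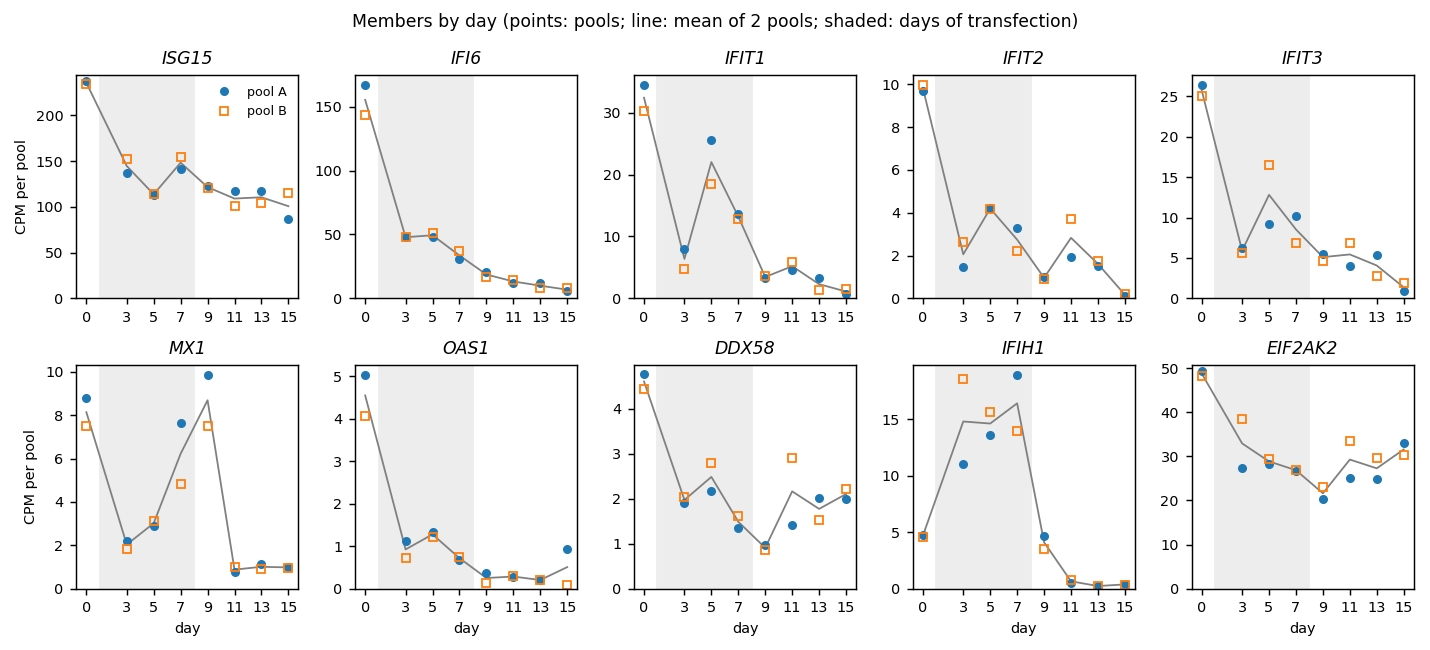
Each panel plots the CPM of 1 gene (vertical axis, linear from 0) against the day of sampling, with filled circles for pool A, open squares for pool B, a line through the mean of the 2 pools and shading for the days of transfection. ISG15, IFI6, IFIT1, IFIT2, IFIT3, OAS1, DDX58 and EIF2AK2 start highest on D0, IFIH1 is highest on D3 to D7, and MX1 peaks again on D9.

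ISG15, a ubiquitin-like protein that is conjugated to other proteins, stood at 237 and 234 CPM in D0 pools A and B. On D3 it was at 137 and 153 CPM, on D5 at 113 and 114, and on D7 at 142 and 155. The 6 pools of D3 to D7 lay below both D0 pools, and the log2 fold change was -0.88 (SE 0.13, adjusted p = 0.00016).

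IFI6, a small membrane protein that limits virus replication and cell death, had 167 and 144 CPM on D0. It fell to 47.7 and 48.0 CPM on D3 and held 47.6 and 51.1 on D5, then read 30.4 and 36.7 on D7. This was the largest fall among the tested genes, 3.80-fold (log2 fold change -1.93, SE 0.17, adjusted p = 3e-06).

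IFIT1, IFIT2 and IFIT3 encode tetratricopeptide proteins that bind viral RNA and block its translation. IFIT1 read 34.5 and 30.4 CPM on D0, 7.91 and 4.82 on D3, 25.6 and 18.4 on D5 and 13.6 and 12.8 on D7. It thus dropped and then rose, and the step from D3 to D5 was called (log2 fold change 1.74, SE 0.35, adjusted p = 0.0087). On D5 IFIT1 did not differ from D0 beyond the threshold (log2 fold change -0.65, SE 0.34, adjusted p = 0.14).

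IFIT3 read 26.4 and 25.1 CPM on D0, 6.19 and 5.62 on D3, 9.17 and 16.4 on D5 and 10.2 and 6.81 on D7. IFIT2 read 9.70 and 9.97 CPM on D0, 1.46 and 2.66 on D3, 4.23 and 4.17 on D5 and 3.29 and 2.201 on D7. Both had their D5 pools above their D3 pools, but the step was not called for IFIT3 (log2 fold change 1.08, SE 0.40, adjusted p = 0.14) or IFIT2 (0.95, SE 0.35, adjusted p = 0.15). Over D3 to D7 against D0, the log2 fold changes were -1.48 for IFIT1 (SE 0.26, adjusted p = 0.00042), -1.84 for IFIT2 (SE 0.26, adjusted p = 8.9e-05) and -1.64 for IFIT3 (SE 0.29, adjusted p = 0.00052).

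MX1, a dynamin-like GTPase that traps viral components, followed a course of its own. It read 8.79 and 7.49 CPM on D0, 2.22 and 1.85 on D3, 2.91 and 3.12 on D5, 7.63 and 4.82 on D7 and 9.88 and 7.51 on D9. The D9 pools were back within the D0 range or above it, and D9 did not differ from D0 beyond the threshold (log2 fold change -0.03, SE 0.24, adjusted p = 0.92). On D11 MX1 read 0.766 and 0.979 CPM, and this fall within 2 days was called (log2 fold change -3.34, SE 0.27, adjusted p = 1e-04). It was then at 1.11 and 0.893 CPM on D13 and 0.995 and 0.957 on D15.

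IFIH1 was the only sensor, and the only one of the 9 tested genes, that was called higher on D3 to D7 than on D0. It read 4.78 and 4.55 CPM on D0, 11.05 and 18.5 on D3, 13.6 and 15.6 on D5 and 18.9 and 13.9 on D7. Every pool of D3 to D7 was above both D0 pools, a 3.12-fold rise (log2 fold change 1.64, SE 0.28, adjusted p = 0.00036). Levels on D3, D5 and D7 did not differ from one another beyond the threshold, with adjusted p = 0.93 for D5 against D3 and 0.89 for D7 against D5. After the last transfection IFIH1 read 4.67 and 3.52 CPM on D9 and 0.517 and 0.762 on D11, both steps being called (log2 fold change -2.04, SE 0.32, adjusted p = 0.0011, and -2.71, SE 0.34, adjusted p = 6e-04). It ended at 0.181 and 0.265 CPM on D13 and 0.422 and 0.309 on D15.

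The remaining sensors fell. EIF2AK2 read 49.4 and 48.3 CPM on D0, 27.4 and 38.5 on D3, 28.3 and 29.4 on D5 and 26.8 and 27.0 on D7 (log2 fold change -0.80, SE 0.17, adjusted p = 0.0018). DDX58 read 4.79 and 4.44 CPM on D0, 1.91 and 2.04 on D3, 2.17 and 2.81 on D5 and 1.35 and 1.62 on D7 (log2 fold change -1.32, SE 0.22, adjusted p = 0.00029). OAS1 had a UMI in 3.51% of cells and did not pass the filter. It read 5.03 and 4.08 CPM on D0, 1.13 and 0.715 on D3, 1.34 and 1.22 on D5 and 0.679 and 0.753 on D7, and in the fit without a filter its log2 fold change was -2.30 (SE 0.46, adjusted p = 0.0021).

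With 2 pools at D0, this comparison leaned on each of them. Without either D0 pool fewer genes were called, both among the 9 genes and among all genes tested. As such a fit leaves 1 pool at D0, only fold changes are given for the genes that lost their call. Without D0 pool A the log2 fold change was -1.35 for IFIT1 and -0.74 for EIF2AK2. Without D0 pool B it was -0.83 for EIF2AK2 and 1.59 for IFIH1.

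The second question was how the days of transfection compared with the later days D11 to D15, with D9 left out. Here 7 of the 9 tested genes were higher on D3 to D7 than on D11 to D15, none was lower, and DDX58 and EIF2AK2 were not called. Across all genes tested, 22.9% were called higher and 22.7% lower. The median log2 fold change was 1.65 over the 9 genes and 0.02 over all genes tested. This comparison shares the pools of D3, D5 and D7 with the first. All 6 pools of one set lay above all 6 of the other for IFI6, MX1 and IFIH1, and the pools overlapped for the other 7 genes. Among all genes tested, 9.53% had all 6 pools of D3 to D7 above and 14.4% had all 6 below.

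**Figure D2:**
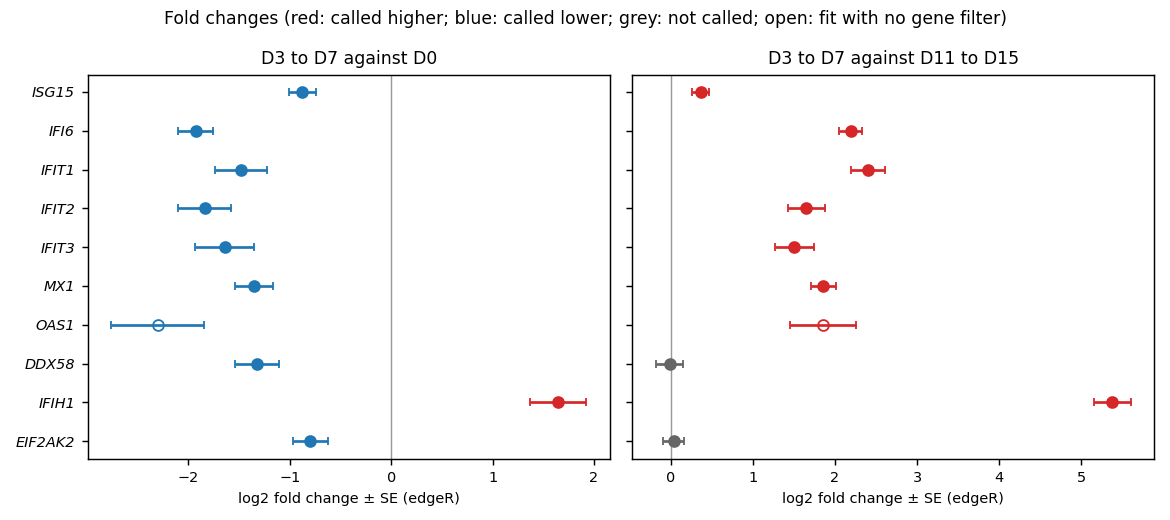
Points give the log2 fold change of each gene and bars its SE, for D3 to D7 against D0 on the left and against D11 to D15 on the right. Red points were called higher, blue points lower and grey points neither, and the open point of OAS1 comes from the fit with no filter on genes. On the left only IFIH1 lies to the right of 0, and on the right IFIH1 lies farthest from 0, at 5.38.

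IFIH1 had the largest difference, 41.5-fold (log2 fold change 5.38, SE 0.23, adjusted p = 7.2e-10), between 11.05 to 18.9 CPM on D3 to D7 and 0.181 to 0.762 CPM on D11 to D15. IFIT1 was 5.29-fold higher on D3 to D7 (log2 fold change 2.40, SE 0.21, adjusted p = 7.2e-07), with 4.50 and 5.89 CPM left on D11, 3.24 and 1.35 on D13 and 0.753 and 1.45 on D15. IFI6 was 4.57-fold higher (log2 fold change 2.19, SE 0.14, adjusted p = 3.4e-08). It kept falling by small steps, to 20.8 and 16.5 CPM on D9, 12.2 and 14.3 on D11, 12.1 and 7.74 on D13 and 5.39 and 8.18 on D15, and none of the steps after D3 between neighbouring days was called.

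MX1 was 3.62-fold higher on D3 to D7 (log2 fold change 1.86, SE 0.15, adjusted p = 3.4e-07). On D9, which this comparison leaves out, its mean was 8.69 CPM, above the 3.76 CPM of D3 to D7. IFIT2 was 3.14-fold higher (1.65, SE 0.23, adjusted p = 4.8e-05), reading 0.995 and 0.924 CPM on D9, 1.94 and 3.71 on D11, 1.49 and 1.73 on D13 and 0.121 and 0.216 on D15. IFIT3 was 2.84-fold higher (1.51, SE 0.23, adjusted p = 0.00013), reading 5.53 and 4.67 CPM on D9, 4.03 and 6.83 on D11, 5.34 and 2.78 on D13 and 0.874 and 1.85 on D15. The D15 pools were below every earlier pool for IFIT2 and IFIT3, and for IFIT1 they overlapped D13. The step from D13 to D15 was called neither for IFIT2 (adjusted p = 0.013) nor for IFIT3 (adjusted p = 0.072).

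ISG15 differed least among the genes called (log2 fold change 0.36, SE 0.10, adjusted p = 0.0072), with 117 and 101 CPM on D11, 117 and 104 on D13 and 86.7 and 115 on D15. The call was lost when the cells richest in UMIs were left out (log2 fold change 0.27, adjusted p = 0.061) and when only the pools of the days compared were fitted (0.36, adjusted p = 0.023). It was also lost without any of 9 single pools, D3 B, D5 A, D5 B, D7 A, D7 B, D11 B, D13 A, D13 B or D15 A, with adjusted p from 0.011 to 0.026. DDX58 read 1.41 and 2.92 CPM on D11, 2.02 and 1.53 on D13 and 1.99 and 2.22 on D15 (log2 fold change -0.01, SE 0.17, adjusted p = 0.95). EIF2AK2 read 25.1 and 33.5 CPM on D11, 25.0 and 29.6 on D13 and 33.0 and 30.2 on D15 (0.04, SE 0.13, adjusted p = 0.82). OAS1, from the fit without a filter, had a log2 fold change of 1.85 (SE 0.41, adjusted p = 0.0025). It read 0.278 and 0.288 CPM on D11, 0.194 and 0.207 on D13 and 0.934 and 0.0771 on D15. D15 pool A thus lay within the 0.679 to 1.34 CPM of D3 to D7.

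From start to end of the course, D11 to D15 against D0, all 9 tested genes were called lower, where 28.6% of all genes were. The range ran from IFI6, 17.4-fold lower (log2 fold change -4.12, SE 0.17, adjusted p = 1.8e-09), to EIF2AK2, 1.78-fold lower (-0.83, SE 0.17, adjusted p = 0.00084). The other 2 tested sensors were IFIH1, 13.3-fold lower, and DDX58, 2.48-fold lower.

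Day by day against D0, IFIH1 was called higher on D3, D5 and D7 and lower from D11 on, and the number of genes called varied. On D3, 7 of the 9 genes were called lower and 1 higher, where 12.4% of all genes were called lower and 13% higher, and EIF2AK2 missed (log2 fold change -0.59, SE 0.22, adjusted p = 0.048). On D5, 5 were lower and 1 higher (13.7% and 15.6% of all genes), with IFIT1, IFIT3 and DDX58 not called. On D7, 7 were lower and 1 higher (17.2% and 19.3%), with MX1 not called. On D9, 7 were lower and none higher (24.4% and 24.3%), with MX1 and IFIH1 not called. All 9 were lower on D11 (20.6% lower and 22.1% higher among all genes) and on D13 (23.3% and 25.2%), and 8 on D15 (26.5% and 26.6%), where EIF2AK2 missed (adjusted p = 0.015).

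Between neighbouring days few steps were called. From D3 to D5 IFIT1 alone rose, where 3.16% of all genes were called higher and 0.352% lower, and from D5 to D7 none of the 9 genes was called (1.74% and 0.234%). From D7 to D9 IFIT1 and IFIH1 fell, where 2.7% of all genes were called lower and 4.49% higher. The step of IFIT1 was -1.97 on the log2 scale (SE 0.35, adjusted p = 0.0025). From D9 to D11 MX1 and IFIH1 fell (1.12% of all genes lower and 2.84% higher). None was called from D11 to D13 (0.0703% lower, 0.0469% higher) or from D13 to D15 (0.086% lower, 0% higher). In these 3 steps with no call edgeR gave an unadjusted p under 0.05 for 3, 2 and 3 of the 9 genes, and for 16.04%, 16.1% and 23.0% of all genes.

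The other genes of the interferon pathway were counted in 9 lists of 116 genes, of which 77 passed the filter. Against D0, 41 were called lower on D3 to D7, 5 higher and 31 neither, where 20.4% of all genes were called lower and 19.4% higher. Against D11 to D15, 39 were called higher on D3 to D7, 9 lower and 29 neither, where 22.9% of all genes were called higher and 22.7% lower. The counts of single lists that follow are to be read against these shares. The median log2 fold changes over the 77 genes were -0.77 and 0.55.

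**Figure D3:**
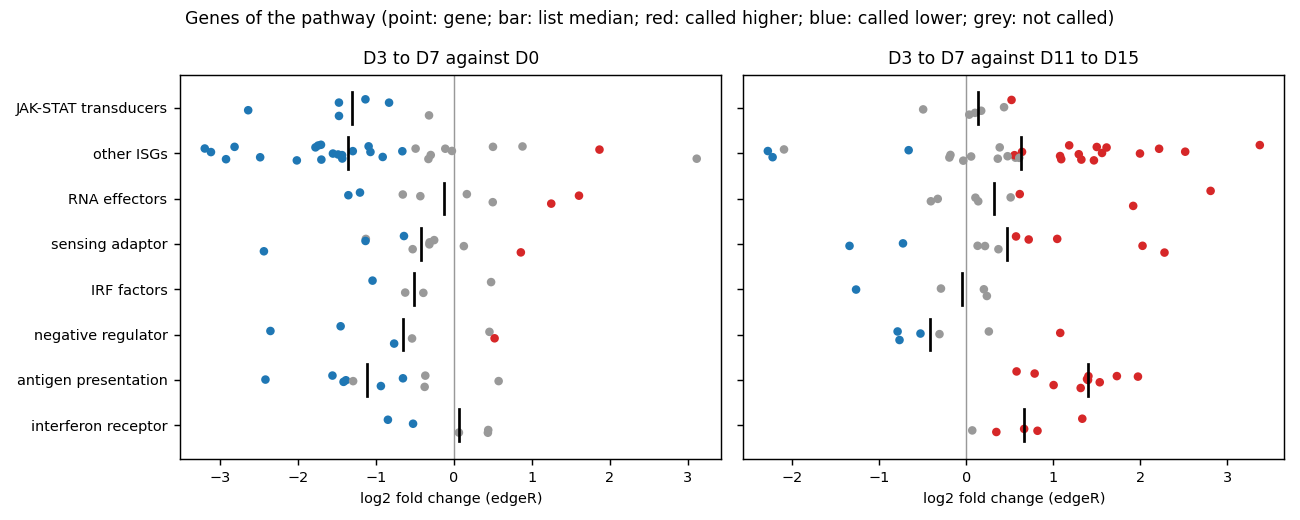
Each point is the log2 fold change of 1 gene of the interferon pathway, in rows by role, for D3 to D7 against D0 on the left and against D11 to D15 on the right. Black bars mark list medians, red points were called higher, blue lower and grey neither. JAK-STAT transducers, other interferon-stimulated genes and antigen presentation genes lie mostly below 0 on the left, with medians of -1.31, -1.37 and -1.12, and all 10 antigen presentation genes lie above 0 on the right.

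No interferon gene passed the filter. Of 21 interferon genes, 11 had no UMI in any pool, which allows up to 0.00162 CPM over the series. The other 10 had at least 1: IFNA5, IFNA10, IFNA13 and IFNL2 with 1 each, IFNL3 with 2, IFNW1 and IFNL1 with 3 each, IFNG with 46, IFNB1 with 73 and IFNE with 520. IFNE, an interferon better known from epithelia, read 0.780 and 0.999 CPM on D0 and at most 0.351 CPM in any later pool. IFNG appeared in 6 pools, all from D9 on, at no more than 0.194 CPM. IFNB1, the type I interferon that fibroblasts typically make, had UMIs in 13 of the 41975 cells, 11 of them with 1 or 2, and 1 cell of D3 pool A alone held 57 of the 73.

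Of 6 receptor subunits, 5 were tested, and IL10RB and IFNAR1, which take part in interferon lambda and in type I interferon binding, were called lower against D0 (log2 fold changes -0.85, SE 0.20, adjusted p = 0.0038, and -0.53, SE 0.13, adjusted p = 0.0057). IL10RB went from 32.7 to 32.9 CPM on D0 to 16.7 to 23.3 CPM on D3 to D7 and to 3.47 to 14.8 CPM on D11 to D15. Against D11 to D15, 4 of the 5 were called higher, IL10RB (1.33) and the interferon gamma receptor IFNGR1 (0.82) most.

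Of 6 JAK-STAT transducers, all were tested and 5 were called lower against D0. IRF9, the DNA-binding part of the complex, read 6.50 to 6.80 CPM on D0 and 0.585 to 1.90 CPM on D3 to D7 (log2 fold change -2.64, SE 0.31, adjusted p = 2e-05). STAT2, its partner, read 18.2 to 20.2 CPM and then 5.48 to 9.64 CPM (-1.48, SE 0.19, adjusted p = 3.6e-05), and JAK1, a receptor kinase, fell by 1.14 on the log2 scale. STAT2 alone of the 6 was called against D11 to D15 (log2 fold change 0.52, adjusted p = 0.0076). IRF2, 1 of 4 tested interferon regulatory factors, was called lower against D0 (-1.05), and IRF7, which drives interferon transcription, was lower on D3 to D7 than on D11 to D15 (-1.27, adjusted p = 6.4e-06), at 3.13 to 5.32 CPM and 6.82 to 12.7 CPM.

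Among 10 tested partners and adaptors of the sensors, 3 were called lower against D0 and 1 higher. TRIM25, a ubiquitin ligase that acts on RIG-I, fell by 1.14 on the log2 scale, and MAVS, the mitochondrial adaptor below RIG-I and MDA5, by 0.64. MB21D1, the DNA sensor also named cGAS, rose (log2 fold change 0.86, SE 0.23, adjusted p = 0.0076), from 4.03 to 4.08 CPM on D0 to 5.97 to 12.01 CPM on D3 to D7. Against D11 to D15, TMEM173 (STING), the adaptor of cGAS, was 2.28 higher and TICAM1, the adaptor of TLR3, 2.02 higher on the log2 scale, and 5 of the 10 were called higher in all. MB21D1 and DHX58, a relative of RIG-I named here after its value was seen, were called lower, at -0.73 and -1.34. DHX58 was also among the 3 called lower against D0, with the largest fall of them (log2 fold change -2.44, SE 0.30, adjusted p = 2.8e-05).

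Of 8 tested effectors of RNA recognition, 2 were called lower and 2 higher against D0, close to the 20.4% and 19.4% of all genes. The 2 that rose were EIF2S1, the translation factor that EIF2AK2 phosphorylates (log2 fold change 1.60, SE 0.23, adjusted p = 0.00011), and TARBP2, a double-stranded RNA binding protein (1.25, SE 0.19, adjusted p = 0.00016). PPP1R15A, which directs the phosphatase that reverses that phosphorylation, fell (-1.35, SE 0.18, adjusted p = 6.2e-05). Against D11 to D15, OAS3, a relative of OAS1, and IFIT5, a relative of IFIT1, were higher on D3 to D7 by 2.81 and 1.92 on the log2 scale.

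The largest list, 36 other interferon-stimulated genes, had 28 tested, of which 19 were called lower and 1 higher against D0, and 15 higher and 3 lower against D11 to D15. The guanylate-binding protein GBP2 went from 19.4 to 21.5 CPM on D0 to 1.00 to 4.72 CPM on D3 to D7 (log2 fold change -3.20, SE 0.41, adjusted p = 4.4e-05). SAMD9L and XAF1 fell likewise (-3.12, adjusted p = 2.5e-06, and -2.92, adjusted p = 1.4e-06). PLSCR1, a phospholipid scramblase, was the 1 gene called higher (1.87, SE 0.21, adjusted p = 1.5e-05) and is named after its value was seen. IFITM1, also named after its value was seen, had a larger rise with a wide spread that did not pass (3.11, SE 1.10, adjusted p = 0.030). IFI44 and SAMD9 exceeded D11 to D15 most, by 3.37 and 2.52. The 3 genes called lower on D3 to D7 than on D11 to D15 were HERC5, the ligase that attaches ISG15 (-2.28), BST2, also named tetherin (-2.23), and EPSTI1 (-0.66), all named after their values were seen. HERC5 read 2.41 and 2.62 CPM on D0 and 26.4 and 28.5 CPM on D15, where ISG15 itself was at its lowest mean.

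Antigen presentation genes moved the most uniformly. Of 10 tested, 6 were called lower against D0 and all 10 higher against D11 to D15. PSMB9 and PSMB8, subunits of the immunoproteasome, had log2 fold changes of -2.42 (SE 0.27, adjusted p = 1.4e-05) and -1.42 (SE 0.21, adjusted p = 0.00012) against D0, and HLA-E one of -1.39 (SE 0.17, adjusted p = 2.7e-05). B2M, the light chain of class I molecules, read 1087 to 1990 CPM on D3 to D7 and 188 to 639 CPM on D11 to D15 (log2 fold change 1.97, SE 0.12, adjusted p = 1.5e-08), and HLA-B was 1.73 higher on that scale. Of 6 negative regulators, SOCS3 (-2.35), TRIM38 (-1.45) and USP18 (-0.77), which removes ISG15 from its targets, were called lower against D0 and PTPN2, named after its value was seen, higher (0.52). Against D11 to D15 only TRIM38 was higher (1.08), and SOCS1 (-0.79) and, outside the rule for named genes, USP18 (-0.77) and PTPN2 (-0.53) were lower.

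Outside the lists, the genes whose log2(CPM + 1) over the 16 pools followed the mean course of the 10 genes most closely, among 10781 candidates, were MAF (Pearson r = 0.986), OSR2 (0.983), TP53TG1 (0.981), OSBPL3 (0.975) and ALPK1 (0.975). The points are pools that share days, medium and depth, and these values are a description. MAF, a transcription factor, went from a mean of 45.5 CPM on D0 to 6.93 CPM on D3 to D7 and 1.40 CPM on D11 to D15. OSR2, a transcription factor of connective tissue development, went from 305 to 18.8 to 1.66 CPM. Among the 10 genes, IFI6 was most like the mean of the other 9 (r = 0.964) and IFIH1 least (r = 0.509), with MX1 next (r = 0.547).

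Seen cell by cell, most members were caught in few cells. Every cell was reduced to 5000 UMIs so that depth did not differ, and no cell was shallower than that (lowest 6266 UMIs). A UMI of at least 1 of the 10 genes was present in 85.0% ± 1.26 of D0 cells (SD, n = 2 pools), 62.4% ± 3.33 on D3 to D7 (n = 6) and 50.03% ± 3.23 on D11 to D15 (n = 6). ISG15 was found in 55.2% to 56.8% of D0 cells and in 31.5% to 45.8% on D3 to D7, and IFI6 in 43.0% to 46.1% and then in 14.4% to 24.0%. IFIT1 was found in 12.2% to 14.4% of D0 cells, 2.18% to 9.96% on D3 to D7 and 0.350% to 1.55% on D11 to D15. IFIH1 rose from 2.198% to 2.27% of cells on D0 to 4.70% to 8.74% on D3 to D7 and then stood at 0.0474% to 0.609% on D11 to D15. No cell type that should lack these genes was present to measure the share that free RNA gives, and shares of a few percent or less carry that limit.

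The IFIT transcripts were concentrated in few cells, a pattern noticed in the data. Cells with at least 5 UMIs of IFIT1, IFIT2 and IFIT3 together at 5000 UMIs numbered 130 of 41975 (0.310%), with 21 cells at exactly 5 and 35 just outside, at 4. They made up 0.765% and 0.712% of cells in D0 pools A and B (47 and 33 cells), 0.159% to 0.491% on D3 to D7 (31 cells in all), 0.115% and 0.121% on D9 (4 cells), and 0% to 0.145% on D11 to D15 (15 cells). In D15 pool A, 0 of 571 cells were found, which allows a share of up to 0.525%. Although so few, these cells held 21.6% and 24.2% of the IFIT UMIs on D0, 22.6% to 49.7% on D3 to D7, 19.1% and 29.2% on D9, and 0% to 60.7% on D11 to D15. The highest share was in D11 pool B, where 1 cell held 1067 of the 2567 IFIT UMIs, and the lowest in D15 pools A and B, at 0% and 6.14%.

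**Figure D4:**
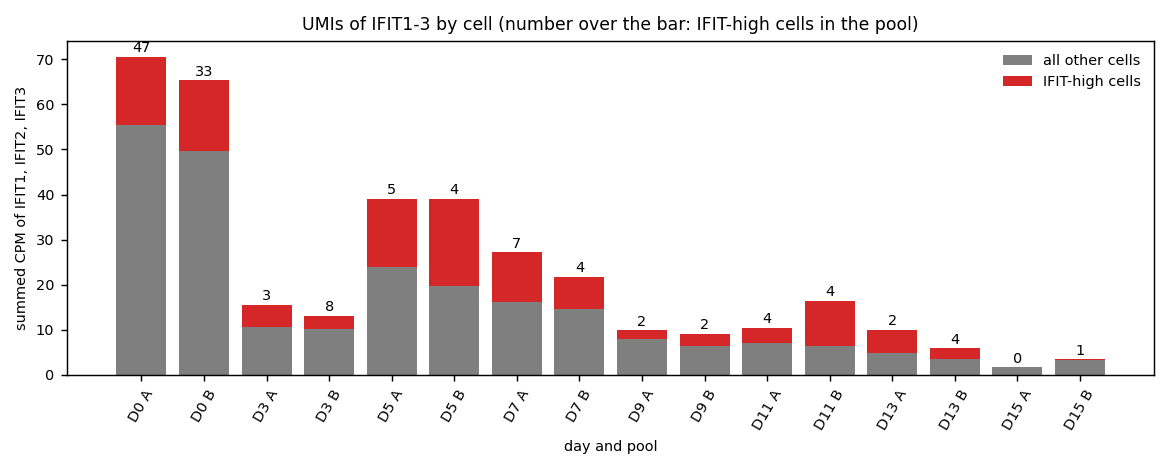
Bars give the summed CPM of IFIT1, IFIT2 and IFIT3 in each pool, split into the part from IFIT-high cells (red) and from all other cells (grey), with the number of IFIT-high cells above. D0 has 47 and 33 such cells and the tallest bars, and on D5 pool B 4 cells hold 49.7% of the UMIs.

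Leaving these cells out must lower the summed IFIT level, since they were chosen on it, and the values are a description. With all cells it was 65.4 and 70.6 CPM on D0, 13.1 to 39.0 on D3 to D7 and 1.75 to 16.4 on D11 to D15, the latter 2 ranges overlapping. Without them it was 49.9 and 55.7 CPM, 10.2 to 24.1 CPM and 1.75 to 6.98 CPM. The levels without these cells on D0 still exceeded every pool of D3 to D7, and these in turn every pool of D11 to D15.

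The 7 other members, which did not define the class, were read in the same cells. On D0, the 80 IFIT-high cells of both pools carried a mean over cells of 19.2 ISG15 UMIs per 5000, against 1.02 in all other cells, and 5.79 against 0.755 of IFI6. MX1 was found in 61.2% of them against 2.64%, OAS1 in 35% against 1.95% and DDX58 in 28.7% against 1.98%. IFIH1 was found in 15 of the 80 cells (18.8%) against 2.10%, and EIF2AK2 in 53.8% against 21.6%. On D3 to D7, the 31 cells carried 20.7 ISG15 UMIs against 0.659, DDX58 was found in 38.7% against 0.856%, and OAS1 in 25.8% against 0.365%. The rising sensor IFIH1 was found in 5 of those 31 cells (16.1%) and in 6.40% of the others, and EIF2AK2 in 6 of them (19.4%) and in 14.5%. On D9, ISG15 was found in 3 of the 4 IFIT-high cells and the 6 other members in none at 5000 UMIs per cell, although the full counts of these cells held 1 to 15 UMIs of each. Cells are not replicates of a day and no test was made. Among pathway genes looked at after the values were seen, OASL had a UMI in 64.5% of the 31 cells against 0.268%, and the chemokine CCL5 in 35.5% against 0.513%. On D0, CCL5 was found in 1 of 80 IFIT-high cells and 0.103% of the others.

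The cell of D3 pool A with 57 IFNB1 UMIs carried 105310 UMIs in all, of which 1521 were ISG15, 42 IFIT1, 39 IFIT2, 93 IFIT3, 20 DDX58, 8 IFIH1 and 164 CCL5, and none LIN28A. A cell of D11 pool B with 3 IFNB1 UMIs among 66731 held 328 IFIT1, 341 IFIT2, 398 IFIT3 and 657 ISG15 UMIs. Its pool had 920 IFIT1, 580 IFIT2 and 1067 IFIT3 UMIs in all, this cell's included. Both cells are deeper than the median of their pools, 46201 and 44744 UMIs, and doublets were not removed.

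LIN28A, one of the transfected factors, was used to split the cells of D3 to D7 by its UMIs. It was almost absent on D0, at no more than 0.0120 CPM, and UMIs of the transfected RNA and of the cell's own gene cannot be told apart here. In the 6 pools, 3240 cells had at least 1 LIN28A UMI at 5000 UMIs (LIN28A-high) and 10232 had none at that depth (LIN28A-low), and the classes were compared within pools. In the full counts the LIN28A-low cells still held 10.2 to 125 CPM of LIN28A and the LIN28A-high cells 74.2 to 528 CPM, so the low class is not one of cells without the transcript, and its 125 CPM in D7 pool A exceeded the 74.2 CPM of the high class in D3 pool A. The class rule itself sets which class is higher, and the share that free RNA gives was not measured. Of the 9 tested genes 1 was called lower, IFI6, and none higher, where 13.2% of all genes were called lower and 9.32% higher. IFI6 was lower in LIN28A-high cells in 6 of 6 pools (log2 fold change -0.36, SE 0.08, adjusted p = 0.0054), at 24.8 to 45.5 CPM against 33.1 to 55.5 CPM. IFIH1 was higher in 5 of 6 pools, at 9.83 to 25.2 CPM against 6.69 to 17.1 CPM, but did not pass (0.69, SE 0.23, adjusted p = 0.045). At an unadjusted p under 0.05 in edgeR, IFIH1 and MX1 were higher and IFI6 and EIF2AK2 lower, 4 of the 9 genes, where 50.8% of all genes passed that limit. DESeq2 called none of the 9 higher. The call of IFI6 was lost with classes and sums at 2000 UMIs per cell (-0.43, adjusted p = 0.05), with no term for the pool (-0.33, adjusted p = 0.5) and without D5 pool A (-0.31, adjusted p = 0.028) or D5 pool B (-0.38, adjusted p = 0.013), and IFIH1 was called higher without D5 pool A (0.46, adjusted p = 0.0072). In all 6 pools the LIN28A-high cells were also the deeper ones, with median UMIs of 33296 to 84920 against 27756 to 74420, and the fibroblast gene COL1A1 was lower in them in 6 of 6 pools, at 384 to 977 CPM against 518 to 1876 CPM. The part of depth and of the fibroblast gene in these values was not tested.

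The late pools mix cells that keep fibroblast genes with cells that express developmental genes. On D9 to D15, 6049 cells were developmental-marker-high and 7629 somatic-marker-high, from the log2 ratio of the summed UMIs of 10 developmental genes to those of 10 fibroblast genes at 5000 UMIs per cell, with 1 UMI added to each sum. The ratio was above 1 in the first class and below -1 in the second, and 4049 cells in between were left out. In developmental-marker-high cells 6 of the 9 tested genes were called lower and none higher, where 33.6% of all genes were called lower and 32.6% higher, so that many genes separated these classes. The median log2 fold change was -1.87 over the 9 genes and 0.00 over all genes. In all 8 pools the developmental-marker-high cells were also the deeper ones, with median UMIs of 30879 to 73133 against 22562 to 57238. The part of depth in these values was not tested.

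**Figure D5:**
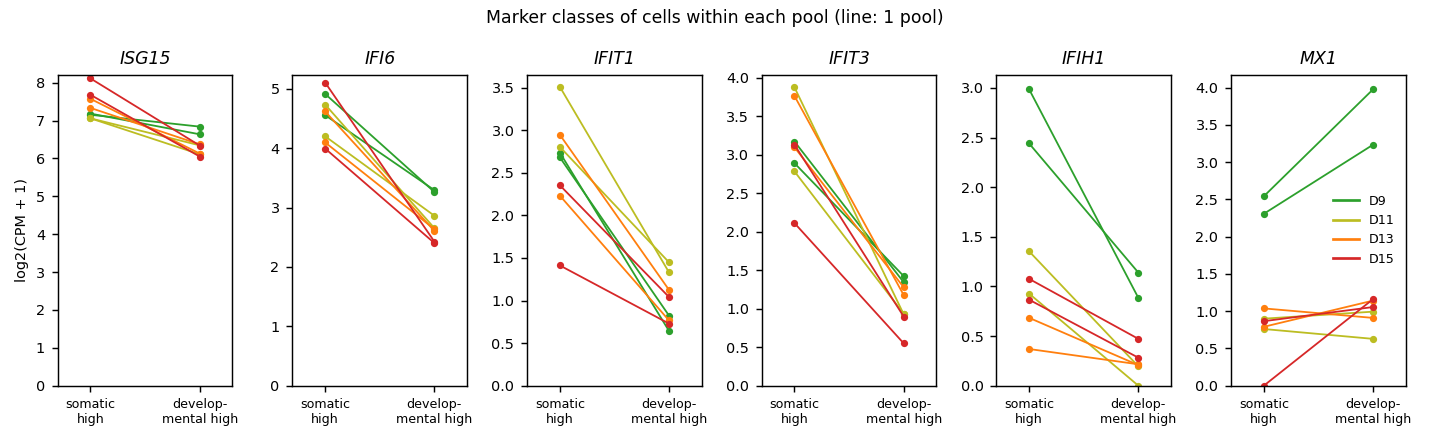
Each line joins the log2(CPM + 1) of 1 gene in somatic-marker-high cells (left) and developmental-marker-high cells (right) of 1 pool, coloured by day from D9 to D15. All 8 lines fall for ISG15, IFI6, IFIT1, IFIT3 and IFIH1, whereas MX1 is high only in the D9 pools and higher there in developmental-marker-high cells.

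ISG15 was lower in 8 of 8 pools, at 65.3 to 114 CPM in developmental-marker-high cells and 132 to 276 CPM in somatic-marker-high cells (log2 fold change -0.98, SE 0.15, adjusted p = 0.00016). IFI6 was lower in 8 of 8, at 4.29 to 8.81 against 15.0 to 33.5 CPM (-1.87, SE 0.16, adjusted p = 2.6e-06). IFIT1 stood at 0.561 to 1.73 against 1.66 to 10.4 CPM (-2.34, SE 0.19, adjusted p = 1.8e-06), and IFIT3 at 0.464 to 1.68 against 3.32 to 13.7 CPM (-2.81, SE 0.21, adjusted p = 1.3e-06). IFIT2 stood at a median of 0.130 against 2.33 CPM (-4.41, SE 0.30, adjusted p = 7.2e-07), and in D15 pool A it had no UMI in developmental-marker-high cells, which allows up to 0.116 CPM. The highest somatic-marker-high values of IFIT1, IFIT2 and IFIT3 were those of D11 pool B, with 709, 537 and 933 UMIs. Of these, 1 cell held 328, 341 and 398. In D13 pools A and B, IFIT-high cells held 52.5% and 41.7% of all IFIT UMIs of the pool. The part of such few cells in these differences was not tested. IFIH1 was lower in 8 of 8 pools (-2.27, SE 0.31, adjusted p = 6.8e-05), with 0.845 and 1.20 CPM against 6.92 and 4.43 CPM in D9 pools A and B. Several later class sums held few IFIH1 UMIs, with 6 against 8 in D13 pool A and 10 against 4 in D15 pool A. In D11 pool A it had no UMI in developmental-marker-high cells, which allows up to 0.273 CPM.

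MX1 differed from these. In D9 pools A and B it read 14.8 and 8.41 CPM in developmental-marker-high cells and 4.82 and 3.95 CPM in somatic-marker-high cells. From D11 on it lay between 0 and 1.24 CPM in both classes, and over all days the difference did not pass (log2 fold change 0.74, SE 0.27, adjusted p = 0.029). EIF2AK2 was lower in 8 of 8 pools by an amount under the limit on the fold (-0.21, SE 0.06, adjusted p = 0.0098), and DDX58 was not called (0.12, SE 0.15, adjusted p = 0.46).

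Levels below those of D0 were also seen in the late somatic-marker-high cells. That class is set by a ratio of marker UMIs, and its level of the fibroblast genes was not compared with D0. In somatic-marker-high cells of D9 to D15, 8 of the 10 genes lay below both D0 pools in each of the 8 pools, given as values with no test, and so did 21.7% of all genes tested, while 30.9% lay above. IFI6 was at 15.0 to 33.5 CPM there and 144 to 167 CPM on D0, IFIT1 at 1.66 to 10.4 against 30.4 to 34.5 CPM, and OAS1 at 0.119 to 1.11 against 4.08 to 5.03 CPM. The exceptions were ISG15, whose 132 to 276 CPM overlapped the 234 to 237 CPM of D0, and IFIH1, whose 0.292 to 6.92 CPM overlapped the 4.55 to 4.78 CPM of D0.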

How the data were processed

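The deposited files hold UMI counts per gene and cell, which the authors made with Cell Ranger 2.2 on GRCh38; the counts are not normalized. Of 44197 barcodes in 22 libraries, 2222 with under 1000 genes or over 10% mitochondrial UMIs were left out, and doublets were not removed. Aliquots of a pool were added, giving 16 pools of 33181614 to 180056814 UMIs; intervals and limits of a count of 0 (3 counts) cover counting error only. Pool counts were fitted with edgeR 4.0.16 (R 4.3.3, TMM scaling, robust quasi-likelihood test, Benjamini-Hochberg adjustment), with 1 coefficient per day and all 16 pools in 1 fit, over the 12794 genes with a UMI in at least 5% of cells. Cell classes were compared with the pool as a term. The SE given with a log2 fold change is the size of that change divided by the square root of the quasi-likelihood F statistic. DESeq2 1.42.0, other scalings, filters, thinned sums and each pool left out were tried, and the fit was tested on simulated data.

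According to the paper a pool holds cells of several chips, so p-values measure the spread between pools. The deviations of pools with the same letter correlated with a median r of -7.57e-05 over 28 pairs of days (range -0.447 to 0.817), and not every pair was above 0.1, so letters were not taken to pair the pools.

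The genes and lists were chosen with earlier results of these data known. Named were all 10 genes, interferons with a UMI, the 5 genes most like them in course, and from each list up to 3 genes called against D0 and up to 2 called against D11 to D15 with the largest fold changes among those reaching 5 CPM in both pools of a day. The few genes named beyond this rule are said to be so where they appear. Promoters are RefSeq windows.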

Additional observations from a re-analysis of the deposited data

Results flagged for a closer look

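In the following cases both pools of one day moved in one direction between cell classes and both pools of another day in the opposite one. None of these differences was tested, and each rests on 2 pools a day. Values are differences between days in the class difference on the log2(CPM + 1) scale, for genes with at least 20 UMIs in each pool over both classes together, so that a single class can hold fewer.

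Between LIN28A-high and LIN28A-low cells (at least 1 against no LIN28A UMI at 5000 UMIs per cell), IFIT1 was higher in the former on D3 (1.22) and lower on D5 (-1.15) and D7 (-0.89), so that the days differed by 2.36 and 2.1. DDX58 was at 0.85 on D3 and -0.86 on D5, a difference of 1.7. Each of these means is carried by 1 pool, the values being 1.58 and 0.12 in D3 pools A and B and -0.0052 and -1.71 in D5 pools A and B, with 9 UMIs in the LIN28A-high class of D5 pool B. IFIT2 was at 0.73 on D3 and -0.84 on D7, a difference of 1.57. ISG15 was at 0.38 on D3 and -0.59 on D5, a difference of 0.97, and OAS1 at 0.08 on D3 and -0.31 on D7, a difference of 0.39, with 8 UMIs in the LIN28A-high class of D3 pool A and 10 in that of D7 pool B. In D3 pool A the LIN28A-high class held 100 cells, and IFIT1 differed by 2.01 there and by 0.42 in D3 pool B. Few cells held much of the IFIT1, IFIT2 and IFIT3 UMIs of these pools, 3 cells with 32.1% in D3 pool A and 4 cells with 49.7% in D5 pool B, and their part in these differences was not tested.

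Between developmental-marker-high and somatic-marker-high cells, DDX58 was higher in the former on D11 (0.14) and D13 (0.16) and lower on D15 (-0.32), differences of 0.46 and 0.48, with 9 UMIs in the somatic-marker-high class of D15 pool A.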

How the results depend on the processing

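For D3 to D7 against D0, leaving out 1 pool at a time gave 0 to 1 of the 9 genes called higher and 6 to 8 lower, and 1303 to 2654 of all genes called higher and 1423 to 2946 lower. For D3 to D7 against D11 to D15 it gave 6 to 7 genes higher, and 2452 to 3276 of all genes higher and 2557 to 3157 lower. With no filter on genes 5011 of all genes were called higher and 5753 lower, more genes being tested. The pool letter as a replicate block, in a paired fit, left 1 gene higher and 8 lower against D0 (2610 and 2819 of all genes) and 7 higher against D11 to D15 (3082 and 3046), and changed no call of the 9 genes. The genes not called against D11 to D15 turned sign: DDX58 was at 0.13 with no filter on genes and ranged from -0.15 to 0.17 without single pools, and EIF2AK2 from -0.074 to 0.13.

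For the LIN28A classes, no replicate block left 0 of all genes called in either direction, and classes and sums at 2000 UMIs left 167 higher and 436 lower; without single pools 0 to 1 of the 9 genes were called higher, 0 to 1 lower, and 847 to 1191 of all genes higher and 1124 to 1591 lower. At 2000 UMIs DDX58 (-0.35), IFIT1 (0.40), IFIT2 (1.16) and IFIT3 (0.014) turned sign and ISG15 was called lower (-0.41). Without single pools ISG15 ranged from -0.21 to 0.014, DDX58 from -0.25 to 0.38, IFIT2 from -0.65 to 0.15 and IFIT3 from -0.81 to 0.059. For the marker classes, 2348 of all genes were called higher at 2000 UMIs and 2709 with no replicate block. At 2000 UMIs DDX58 turned to -0.34, IFIH1 lost its call (-1.44, adjusted p = 0.05 by edgeR) and EIF2AK2 was called (-0.53), as it was without D15 pool A (-0.25). The share of cells with a UMI of any of the 10 genes was 99.8% on D0, 99.3% on D3 to D7 and 97.3% on D11 to D15 with no thinning, and 55.2%, 34.6% and 25.7% at 2000 UMIs, as fewer UMIs per cell are read. The cause of the other changes was not tested. LIN28A-high at the median and at 1 UMI gave the same classes. In the full counts, on which the filter on genes was based, OAS1 did not pass it, nor did any interferon.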
